A study of Capra hircus with 9 samples.

Results

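The cluster of miR-143 and miR-145 is a pair of miRNA hairpins that lie side by side in the genome, each of which gives a mature miRNA from its 5′ arm (5p) and from its 3′ arm (3p). The rows of the deposited table whose names start with chi-miR-143- or chi-miR-145- were taken, which gave 4 mature miRNAs of the 1359 in the table, namely chi-miR-143-3p, chi-miR-143-5p, chi-miR-145-5p and chi-miR-145-3p. All 4 passed the filter on low counts, as did 696 miRNAs in all. The libraries were made from small RNA of the mammary gland of healthy Laoshan dairy goats of the third parity, for which no treatment is given. Glands were sampled from 3 goats at each of 3 stages, with 1 library per goat. Late lactation (LL) was sampled on day 240 after kidding and the dry period (DP) on day 300 after kidding. Late gestation (LG) was day 140 counted from mating. The samples were pieces of whole gland, so that epithelium, myoepithelium, stroma, vessels and blood cells were read together, and fewer cells of a type cannot be told apart from less RNA per cell.

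In mammals both hairpins are made from 1 primary transcript, which is transcribed under serum response factor and myocardin in smooth muscle cells. miR-143 and miR-145 are known to be abundant in the smooth muscle of vessels and gut, where they favour the contractile over the proliferating state, among others by repressing KLF4 and ELK1. In the mammary gland, cells with a contractile programme are the smooth muscle cells of vessels and the myoepithelial cells, which surround alveoli and ducts and squeeze out milk when oxytocin acts on them. A mature miRNA acts through its seed, the bases near its 5′ end that pair with messenger RNAs. The arms of a hairpin have different seeds and can act on different messenger RNAs. The table holds miRNAs only, and no list of smooth muscle or myoepithelium markers was used. The cells that the reads of the cluster came from were therefore not checked here.

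In the RefSeq annotation of the goat genome (ARS1.2, the build the authors aligned to), MIR145 lies on chromosome 7 from 49605228 to 49605315 and MIR143 from 49606624 to 49606724. Between the hairpins are 1308 bases. No other annotated gene overlaps this stretch. The nearest annotated genes are CSNK1A1, which ends 42352 bases before MIR145, and IL17B, which starts 34491 bases after MIR143, so the pair lies between genes. None of the 4 mature miRNAs had counts equal to those of another row in all libraries.

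Depth was high for these miRNAs. Libraries held 13672653 to 34378995 counts, and the lowest count of a member in any library was 1980, for chi-miR-143-5p. chi-miR-148a-3p alone held 8.81% to 59.4% of the counts of a library, less in DP than in LL and LG, so the scaling of the libraries matters for every level given. Levels are given as CPM, the count of a miRNA relative to the total of its library, scaled by edgeR's TMM method unless said otherwise. With TMM, the median log2 fold change of the 696 tested miRNAs was 0.12 in DP vs. LL, 0.18 in DP vs. LG and 0.17 in LL vs. LG. With libraries scaled by their size only it was 0.49, −0.02 and −0.42, and with scaling by size after leaving out chi-miR-148a-3p it was −0.51, −0.66 and −0.10. DP replicate 3 stood apart from the other libraries of its stage for 3 of the 4 members, and the tests of the members are therefore given with and without it. Since it was singled out by the values of these members, p-values of tests without it can be too small.

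chi-miR-143-3p, the main product of its hairpin, was the second most abundant of all miRNAs in 7 of 9 libraries. In LL its level was 72942, 65094 and 110276 CPM in replicates 1, 2 and 3. In DP it was 28796, 38070 and 117011 CPM, and in LG 57676, 50025 and 58842 CPM. The libraries of LG lay close together and those of LL all lay above them. DP held both the lowest and the highest of all 9 values, with replicate 3 at 4.06 times replicate 1. By abundance, chi-miR-143-3p ranked eighth in DP replicate 1 and seventh in DP replicate 2, and second in DP replicate 3.

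chi-miR-143-5p, the rare arm of the same hairpin, had 186, 221 and 278 CPM in LL. It had 124, 149 and 773 CPM in DP and 183, 158 and 188 CPM in LG. As for the 3p arm, DP replicates 1 and 2 were the lowest of the 9 libraries and DP replicate 3 was the highest, here at 6.22 times replicate 1.

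chi-miR-145-5p, the main product of the other hairpin, had 5593, 5741 and 5008 CPM in LL. It had 1487, 2798 and 5714 CPM in DP and 3541, 2647 and 1409 CPM in LG. LL was tight, and its lowest library lay above every library of LG. DP again ran over nearly the whole range, and its libraries overlapped with those of both other stages.

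chi-miR-145-3p, the less abundant arm of that hairpin, behaved differently. Its level was 763, 1038 and 893 CPM in LL, 854, 1067 and 1638 CPM in DP, and 472, 395 and 288 CPM in LG. All 3 libraries of LG were lower than all 6 of LL and DP, and the libraries of LL and DP overlapped. The spread within DP was small beside that of the other members, with replicate 3 at 1.92 times replicate 1.

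**Figure D1:**
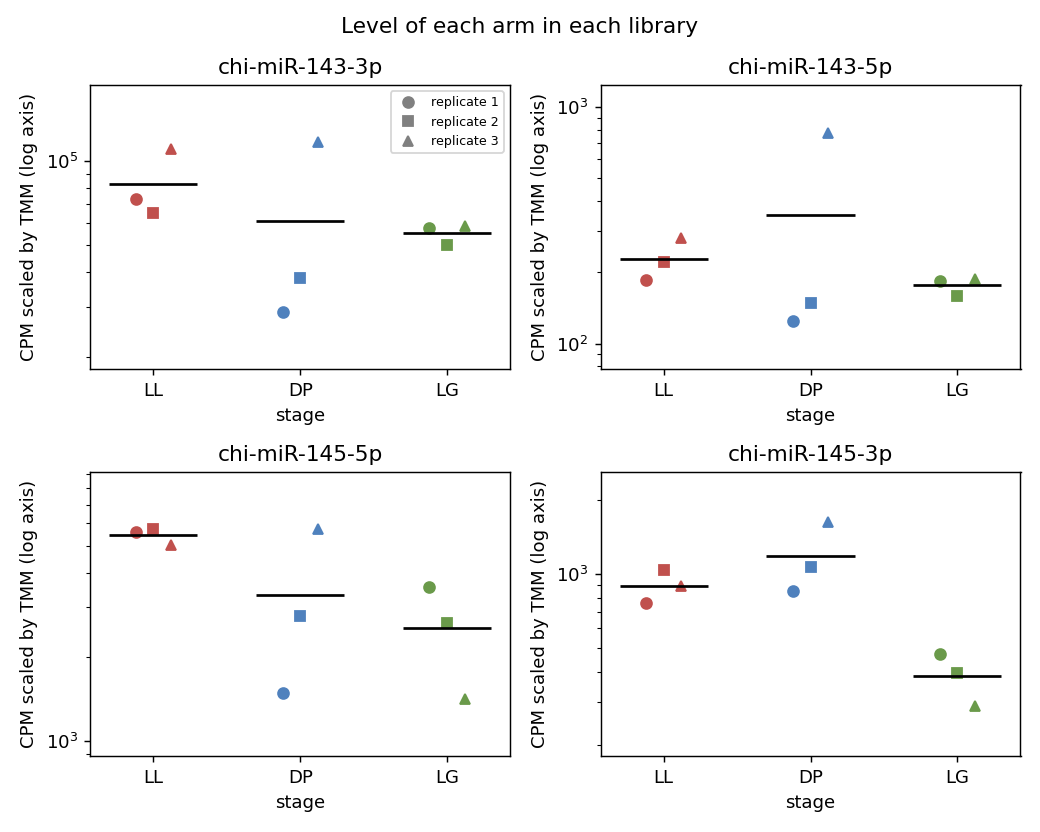
Level of the 4 mature miRNAs in each library, as CPM scaled by TMM on log axes, by stage (LL, DP, LG). Points are libraries (circle, square and triangle for replicates 1, 2 and 3) and lines are stage means. DP replicate 3 lies above the other libraries of DP in all panels, and for chi-miR-145-3p the 3 libraries of LG, between 288 and 472 CPM, lie below all others.

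The mean levels, with the SD of 3 goats, ordered the stages differently for the members. For chi-miR-143-3p the order was LL (82771 ± 24141 CPM), DP (61292 ± 48476 CPM) and LG (55514 ± 4789 CPM), and for chi-miR-145-5p it was LL (5447 ± 387 CPM), DP (3333 ± 2164 CPM) and LG (2532 ± 1070 CPM). For chi-miR-143-5p it was DP (349 ± 368 CPM), LL (228 ± 46.5 CPM) and LG (176 ± 15.8 CPM). In none of these orders did neighbours differ beyond the spread of the libraries. For chi-miR-145-3p the order was DP (1186 ± 405 CPM), LL (898 ± 138 CPM) and LG (385 ± 92.2 CPM). DP and LL did not differ beyond the spread, and both were above LG. Without DP replicate 3, DP had the lowest mean of the 3 stages for chi-miR-143-3p (33433 CPM), chi-miR-143-5p (136 CPM) and chi-miR-145-5p (2142 CPM), while for chi-miR-145-3p (960.3 CPM) it stayed the highest.

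The comparison between the dry period and late lactation follows the gland from milk secretion into involution, when alveoli shrink and secretory cells are lost. None of the 4 members was a DE-miRNA (adjusted p under 0.05 and absolute log2 fold change above 1) in DP vs. LL, where 26.7% of the tested miRNAs were. With p adjusted by Benjamini-Hochberg over all 696 miRNAs in the quasi-likelihood test of edgeR, the log2 fold change was −0.43 for chi-miR-143-3p (SE 0.45, adjusted p = 0.499) and −0.71 for chi-miR-145-5p (SE 0.45, adjusted p = 0.252). For the rarer arms it was 0.61 for chi-miR-143-5p (SE 0.58, adjusted p = 0.452) and 0.40 for chi-miR-145-3p (SE 0.29, adjusted p = 0.319). The main arms thus had negative and the rarer arms positive values, all within the spread of the libraries. At an unadjusted p under 0.05 there were 0 of 4 members as well, against 40.5% of the tested miRNAs. limma-voom also called 0 of 4 members and 23.7% of all miRNAs, and DESeq2, which gave no adjusted p for chi-miR-143-5p, called 0 of 3 members and 29.7% of all. The libraries of both stages overlapped for all 4 members, whereas they did not for 41.2% of the tested miRNAs.

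Without DP replicate 3, both main arms were DE-miRNAs and lower in DP. In that fit, 26.9% of the tested miRNAs were DE-miRNAs in DP vs. LL, and 13.0% were lower in DP. By edgeR's test, chi-miR-143-3p then had a log2 fold change of −1.34 (adjusted p = 0.00505) and chi-miR-145-5p one of −1.37 (adjusted p = 0.0378). chi-miR-143-5p turned from 0.61 to −0.77 (adjusted p = 0.0475), under the limit on the fold change, and chi-miR-145-3p stayed near 0 with 0.06 (adjusted p = 0.876). Whether the main arms passed the test therefore depended on 1 library. That library was left out for its values in these members, so the adjusted p without it can be too small. In both fits chi-miR-145-3p did not pass the test. With all libraries, chi-miR-145-5p passed it when libraries were scaled by size after leaving out chi-miR-148a-3p (−1.35, edgeR's adjusted p = 0.0406). Over the alternatives of scaling, filter, samples or tool, chi-miR-145-5p ran from −1.35 to −0.38 and chi-miR-143-3p from −1.04 to −0.06. The upper value of each was found with scaling by size only.

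The comparison between the dry period and late gestation contrasts the resting gland with the gland that is rebuilt before the next lactation. In DP vs. LG, 1 of the 4 members was a DE-miRNA, against 31.5% of the tested miRNAs. chi-miR-145-3p was higher in DP by 1.62 on the log2 scale (SE 0.29, edgeR's adjusted p = 0.00184), and was higher in each of the 3 DP libraries than in any LG library. For the other members, the log2 fold change was 0.14 for chi-miR-143-3p (SE 0.45, adjusted p = 0.832), 0.98 for chi-miR-143-5p (SE 0.58, adjusted p = 0.219) and 0.40 for chi-miR-145-5p (SE 0.44, adjusted p = 0.555). chi-miR-145-3p was also the 1 member of 4 whose libraries did not overlap between DP and LG, against 44.7% of the tested miRNAs.

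Leaving out DP replicate 3 kept the call of chi-miR-145-3p, at a log2 fold change of 1.09 (adjusted p = 0.0152 from edgeR's test), and turned the other members to negative values. These were −0.95 for chi-miR-143-3p (adjusted p = 0.0205), −0.59 for chi-miR-143-5p (adjusted p = 0.109) and −0.46 for chi-miR-145-5p (adjusted p = 0.44), of which none was a DE-miRNA. For chi-miR-143-3p the sign in DP vs. LG also turned with most other settings of scaling, filter or tool, with log2 fold changes from −0.75 to 0.14. In the fit without DP replicate 3, 28.5% of the tested miRNAs were DE-miRNAs in DP vs. LG, and 15.8% were higher in DP. The call of chi-miR-145-3p was kept in each fit without 1 library. It was lost when libraries were scaled by size after chi-miR-148a-3p had been left out, with a log2 fold change of 0.74 (adjusted p = 0.0568). This was the highest adjusted p among the alternatives, which otherwise ran from 0.000387 upward and all kept the call.

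The comparison between late lactation and late gestation contrasts the secreting gland with the gland shortly before milk secretion starts. In LL vs. LG, 1 of the 4 members was a DE-miRNA, against 12.8% of the tested miRNAs. chi-miR-145-3p was higher in LL by 1.22 on the log2 scale (SE 0.29, edgeR's adjusted p = 0.0183). For chi-miR-145-5p, the other arm, the value of 1.11 (SE 0.45) did not pass the test, with an adjusted p of 0.122. The value of chi-miR-143-3p was 0.58 (SE 0.45, edgeR's adjusted p = 0.416). That of chi-miR-143-5p was 0.37 (SE 0.57, edgeR's adjusted p = 0.734). The libraries of LL lay above those of LG without overlap for 3 of the 4 members, the exception being chi-miR-143-5p, against 48.4% of the tested miRNAs whose libraries did not overlap. With libraries scaled by size only, chi-miR-145-3p was the 1 member without overlap in LL vs. LG (47.0% of the tested miRNAs), in DP vs. LL (44.3%) and in DP vs. LG (44.3%). With libraries scaled by size only, the log2 fold changes of chi-miR-143-3p and chi-miR-143-5p were −0.03 and −0.22. That of chi-miR-145-5p was 0.55, and that of chi-miR-145-3p was 0.67 (edgeR's adjusted p = 0.151). The call of chi-miR-145-3p was lost in 7 of the 11 alternatives of scaling, filter, samples or tool. The call of chi-miR-145-3p in LL vs. LG was also lost on leaving out any 1 library of LL or LG or DP replicate 2, at log2 fold changes of 0.83 to 1.204 (adjusted p of 0.0721 to 0.213).

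**Figure D2:**
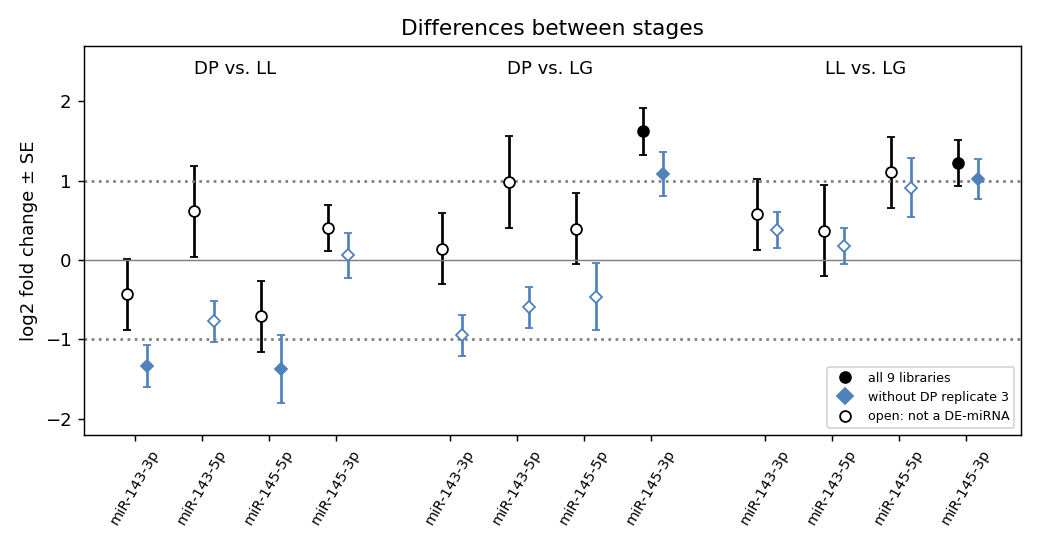
Log2 fold change with its standard error for each member in DP vs. LL, DP vs. LG and LL vs. LG, from the fit of all 9 libraries (circles) and from the fit without DP replicate 3 (diamonds). Filled symbols are DE-miRNAs and dotted lines mark the limit of 1 on the fold change. With all libraries, chi-miR-145-3p is filled in DP vs. LG and in LL vs. LG, and without DP replicate 3 it stays filled in both, while chi-miR-143-3p and chi-miR-145-5p are filled on the negative side of DP vs. LL.

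The ratio between the arms of a hairpin is read within a library and does not depend on how libraries are scaled. Reads of different sequences are not captured alike, so a ratio was compared between libraries and not taken as a ratio of molecules. Of the reads of the miR-145 hairpin, chi-miR-145-3p took 12.0%, 15.3% and 15.1% in LL. It took 36.5%, 27.6% and 22.3% in DP and 11.8%, 13.0% and 17.0% in LG. Each DP library was above every library of LL and LG, and DP replicate 3 had the lowest share of the 3 DP libraries. For every read of chi-miR-145-3p there were 2.62 reads of chi-miR-145-5p on average in DP, 6.16 in LL and 6.36 in LG.

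Of the reads of the miR-143 hairpin, chi-miR-143-5p took 0.254%, 0.338% and 0.251% in LL. It took 0.430%, 0.389% and 0.657% in DP and 0.316%, 0.316% and 0.318% in LG. The share of the rarer arm was thus higher in each DP library than in any other, as for miR-145, while DP replicate 3 was here the highest library of its stage. In LG the 3 goats had nearly the same share.

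**Figure D3:**
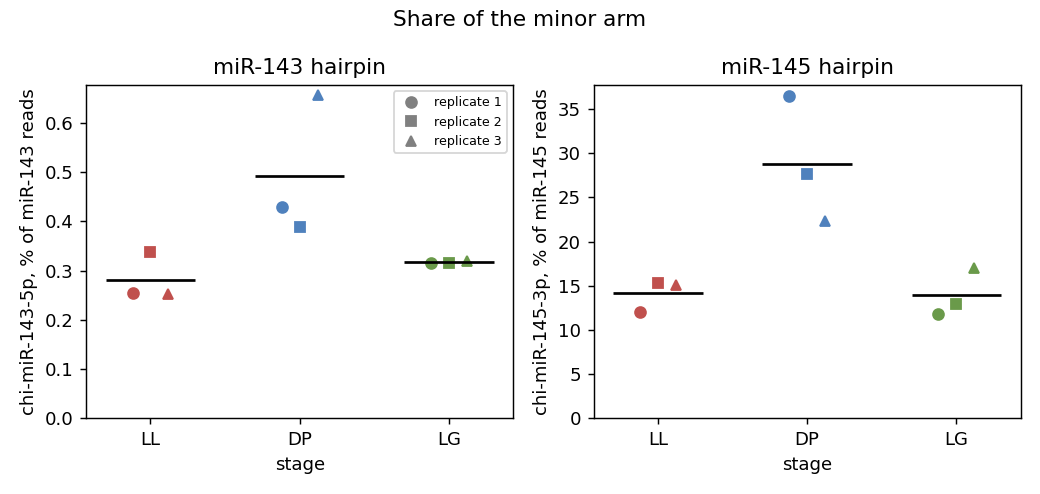
Share of each hairpin's reads that fell on its rarer arm, in percent, by stage and library. Left, chi-miR-143-5p of all miR-143 reads. Right, chi-miR-145-3p of all miR-145 reads. Points are libraries and lines are stage means, and in both panels the 3 DP libraries lie above those of LL and LG.

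As log2 ratios, the rarer over the main arm of miR-145 was −2.61 ± 0.23 in LL, −1.33 ± 0.50 in DP and −2.65 ± 0.32 in LG (SD, n = 3), with p = 0.0321 across the stages in an exact permutation test over the 280 splits of 9 libraries into 3 groups of 3. For miR-143 it was −8.48 ± 0.24 in LL, −7.70 ± 0.40 in DP and −8.30 ± 0.01 in LG (exact permutation test, p = 0.0143). Adjusted over the 4 values tested in this way (Benjamini-Hochberg), the exact permutation p was 0.0643 and 0.0571, so that neither passed 0.05. The unadjusted p of miR-143 rose to 0.0607 on leaving out LL replicate 1 or LL replicate 3 (exact permutation test). Between pairs of stages the exact permutation test, two-sided, cannot go below 0.1 with 3 libraries against 3, and it gave 0.1 for both ratios in DP vs. LL and in DP vs. LG. In LL vs. LG it gave p = 0.9 for miR-145 and p = 0.4 for miR-143 (exact permutation test). Without DP replicate 3, the difference of the log2 ratio of miR-145 was 1.51 for DP minus LL and 1.55 for DP minus LG, and that of miR-143 was 0.56 and 0.37.

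Arm ratios differed between stages for many hairpins. Of the 129 known hairpins with both arms tested, the ratios of the libraries did not overlap for 41.9% in DP vs. LL, for 41.9% in DP vs. LG and for 27.1% in LL vs. LG. Both hairpins of the cluster were among these in each comparison with DP and neither was in LL vs. LG. By the size of the difference, miR-145 ranked 23rd of 129 in DP vs. LL and 17th in DP vs. LG, and miR-143 ranked 56th and 68th.

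The proportion between the main arms of both hairpins was also read within each library. There were 11.3 to 22.0 reads of chi-miR-143-3p for each read of chi-miR-145-5p in LL, 13.6 to 20.5 in DP and 16.3 to 41.8 in LG, where replicate 3 had the highest value and replicates 1 and 2 had 16.3 and 18.9. The log2 ratio of chi-miR-145-5p to chi-miR-143-3p was −3.89 ± 0.50 in LL, −4.13 ± 0.32 in DP and −4.55 ± 0.73 in LG (SD, n = 3), with p = 0.393 in the exact permutation test across the stages (adjusted 0.524). The difference between stages was within the spread of the libraries.

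All 4 members together took 5.92%, 6.63% and 8.76% of the counts in LL, 3.64%, 3.91% and 12.8% in DP, and 7.09%, 6.33% and 7.80% in LG. The means were 7.11% ± 1.48, 6.78% ± 5.21 and 7.07% ± 0.734 (SD, n = 3), and the exact permutation test across the stages gave p = 1. Without DP replicate 3 the difference of DP minus LL went from −0.32 to −3.33 percentage points and the exact permutation p was 0.0429 (adjusted 0.0571). These are shares of all counts, which rise where chi-miR-148a-3p falls. Of the counts that were not chi-miR-148a-3p, the cluster took 12.9% to 18.7% in LL, 4.08% to 14.0% in DP and 11.4% to 12.9% in LG, with p = 0.146 across the stages in the exact permutation test (adjusted 0.195). DP replicates 1 and 2, with 4.08% and 4.31%, lay below all libraries of the other stages, and DP replicate 3 lay within their range.

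How far the goats of a stage spread differed by stage and by member. In DP, the SD of log2 CPM was 1.07 for chi-miR-143-3p, 1.45 for chi-miR-143-5p and 0.97 for chi-miR-145-5p, against a median of 0.43 over the 140 miRNAs whose mean reached 100 CPM. For chi-miR-145-3p it was 0.48. In LG, the SD of chi-miR-143-3p (0.13) and chi-miR-143-5p (0.13) lay below the median of 0.18 of these miRNAs, and that of chi-miR-145-5p was 0.68. In LL it ran from 0.10 for chi-miR-145-5p to 0.40 for chi-miR-143-3p, with a median of 0.21. With all libraries, the 4 members thus spread most in DP, which rested on DP replicate 3. Without it, the SD in DP came from 2 libraries only. It was 0.28 for chi-miR-143-3p, 0.18 for chi-miR-143-5p, 0.65 for chi-miR-145-5p and 0.23 for chi-miR-145-3p. Each lay between the SD of the same miRNA in LL and that in LG, which are from 3 libraries. The median over the abundant miRNAs was then 0.36, and chi-miR-145-5p stayed above it.

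Over the 9 libraries, the Pearson correlation of log2 CPM with chi-miR-143-3p was 0.83 for chi-miR-143-5p, 0.73 for chi-miR-145-5p and 0.28 for chi-miR-145-3p. chi-miR-145-5p had a correlation of 0.59 with chi-miR-145-3p, the other arm of its hairpin, and one of 0.59 with chi-miR-143-5p, so that it was closer to the main arm of miR-143 than to its own partner. With DP replicate 3 left out, the correlations with chi-miR-143-3p were 0.96 for chi-miR-143-5p, 0.68 for chi-miR-145-5p and −0.03 for chi-miR-145-3p, that of chi-miR-143-5p with chi-miR-145-3p went from 0.53 to 0.08, and that between the arms of miR-145 was 0.50. These are descriptions over libraries that share a depth and a scaling. With the stage means taken out, the arms of miR-143 had a correlation of 0.97 and the arms of miR-145 one of 0.93, whereas the correlations between arms of different hairpins were 0.65 to 0.72. In the 8 libraries other than DP replicate 3 these were 0.85 for the arms of miR-143, 0.86 for those of miR-145 and 0.0084 to 0.22 between hairpins, so that the likeness between hairpins within a stage rested on that library.

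Outside the cluster, the tested miRNAs whose log2 CPM over the 9 libraries was most like that of chi-miR-143-3p were chi-miR-144-3p (r = 0.94), NC_030819.1_16860 (0.86), chi-miR-502a (0.85), NC_030822.1_20018 (0.82) and chi-miR-22-3p (0.78). Most of these were rare, such as chi-miR-144-3p with 0.879 to 1.65 CPM as stage means. The most abundant of them was chi-miR-22-3p with 276 to 529 CPM. For chi-miR-145-5p they were NC_030822.1_20018 (0.92), chi-miR-2411-5p (0.87), chi-miR-133a-5p (0.87), NC_030808.1_1064 (0.85) and chi-miR-30c-5p (0.83). Names that start with NC_ belong to predicted miRNAs and give the chromosome sequence that holds them. The nearest miRNA to chi-miR-145-3p, looked up after the values of that arm were seen, was chi-miR-140-5p (0.96), followed by chi-miR-29a-3p (0.94). When DP replicate 3 was left out, the correlations of the 5 miRNAs with chi-miR-143-3p were 0.67 to 0.93 and those of the 5 with chi-miR-145-5p were 0.84 to 0.91.

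Lists of miRNAs taken as markers of other cell types of the gland were read beside the cluster. They were chosen with earlier results of these libraries known, so their counts of calls are descriptions and not tests. Over all tested miRNAs, 15.1% were called higher and 11.6% lower in DP vs. LL, 21.6% higher and 9.91% lower in DP vs. LG, and 8.91% higher and 3.88% lower in LL vs. LG. The list of fibroblasts and other stroma had all 12 miRNAs in the table and all tested, among them the miR-199 and miR-214 families and chi-miR-99a-5p, its most abundant. Of the 12, 11 were DE-miRNAs and higher in DP in DP vs. LL, and 11 in DP vs. LG, against 15.1% and 21.6% of all tested miRNAs, with median log2 fold changes of 1.85 and 2.00 beside 0.12 and 0.18 over all tested miRNAs. Without DP replicate 3 the numbers were 10 and 11, and with libraries scaled by size after leaving out chi-miR-148a-3p they were 9 and 6, where 3.82% and 5.86% of all tested miRNAs were called higher. Some of these rows share reads, since 10 of the 12 had distinct counts, so sums over the list count some reads more than once. chi-miR-199a-3p and chi-miR-199b-3p also had nearly equal log2 fold changes (1.9074 and 1.9070 in DP vs. LL). The summed level of the list was 55222 to 95367 CPM in LL, 182940 to 307208 CPM in DP and 62048 to 65130 CPM in LG, and none of its members was at 0 in a stage.

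Relative to this list, which rose in DP, chi-miR-143-3p was low in DP. For 100 reads of the list there were 132, 93.0 and 116 reads of chi-miR-143-3p in LL, 15.7, 12.4 and 54.4 in DP, and 92.8, 80.6 and 90.3 in LG. All 3 DP libraries lay below the 6 others, DP replicate 3 included. The list itself was 1.5 to 2.3 above the LG mean in DP (log2), so a miRNA of unchanged level would also be low. The share of all miRNAs without overlap on this ratio was not computed. Reads of chi-miR-145-5p for 100 reads of the list were 5.25 to 10.1 in LL, 0.813 to 2.66 in DP and 2.16 to 5.70 in LG, and here DP replicate 3 overlapped with LG. The list was chosen with earlier results of these libraries known and the ratio was formed after the rise of the list was seen, so no test is given.

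Relative to the epithelium list, which had lower levels in DP, chi-miR-143-3p was not low. For 100 reads of that list there were 195, 151 and 312 reads of chi-miR-143-3p in LL, 129, 191 and 832 in DP, and 149, 143 and 155 in LG. DP held both the lowest and the highest value here, so the place of DP depended on the list chosen.

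The epithelium list, led by chi-miR-200b of the miR-200 family, which marks epithelial cells, had 8 of its 12 miRNAs in the table and tested. In DP vs. LL 5 were lower in DP, against 11.6% of all tested miRNAs, with a median log2 fold change of −1.05. chi-miR-183 was higher (edgeR's adjusted p = 0.0441), and 0 of the list were higher in 6 of 11 alternatives and on leaving out any library other than DP replicate 3 or LG replicate 1. In DP vs. LG 3 were lower, against 9.91% of all, with a median of −0.85. On leaving out DP replicate 3, 4 were lower in DP vs. LL and 3 in DP vs. LG, and without DP replicate 2, 3 were lower in DP vs. LL. With libraries scaled by size only, 0 were lower in DP vs. LL and 5 in DP vs. LG. Over all alternatives, 3 to 5 were lower in DP vs. LG. The summed level was 35325 to 43018 CPM in LL, 14060 to 22385 CPM in DP and 34932 to 38642 CPM in LG, with the lowest value in DP replicate 3. The endothelium list of chi-miR-126-3p and chi-miR-126-5p, which mark the lining of vessels, had 0 of 2 called in DP vs. LL, where 26.7% of all tested miRNAs were, and 1 of 2 (chi-miR-126-5p, higher in DP) in DP vs. LG, where 31.5% were. This call was lost in 8 of the 11 alternatives of scaling, filter, samples or tool and on leaving out any library other than DP replicate 1. The summed level of this list was 15852 to 22980 CPM in LL, 19028 to 31975 CPM in DP and 14716 to 16363 CPM in LG.

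The striated muscle list, led by chi-miR-1, had 7 of 7 miRNAs in the table and 6 tested. chi-miR-206 was higher in DP in DP vs. LL, and chi-miR-1 and chi-miR-206 were higher in DP in DP vs. LG. These are 1 and 2 of 6, against 15.1% and 21.6% of all tested miRNAs called higher. With libraries scaled by size after leaving out chi-miR-148a-3p, 0 of 6 were called in DP vs. LG. Without DP replicate 3, the 6 tested miRNAs had 1 call in each comparison, and their median log2 fold change in DP vs. LL went from 0.39 to −0.43. Without DP replicate 1 there were 2 calls in DP vs. LL and 5 in DP vs. LG, and without DP replicate 2 there were 2 in each. Its summed level was 722 to 933 CPM in LL, 971, 1071 and 3448 CPM in DP replicates 1, 2 and 3, and 420 to 531 CPM in LG. DP replicate 3, which had the highest levels of all 4 members within DP, was thus also the highest for striated muscle and the lowest for epithelium. chi-miR-133a-3p had 133 CPM in this library and 14.8 and 36.9 CPM in the others of DP, and chi-miR-499-3p had 0 counts in all DP libraries. The part of striated muscle in the levels of the cluster was not tested.

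The list of blood and immune cells, led by chi-miR-146b-5p, had 9 of 12 miRNAs in the table and tested. In DP vs. LL 1 was higher and 1 lower in DP, in DP vs. LG 6 were higher and 0 lower, and in LL vs. LG 4 were higher in LL and 0 lower, against 15.1%, 21.6% and 8.91% of all tested miRNAs called higher. These counts were not stable. In DP vs. LG, the number higher was 2 without DP replicate 2, LG replicate 2 or LG replicate 3, and 1 with scaling by size after leaving out chi-miR-148a-3p. With DP replicate 3 left out, 5 were higher and 1 lower in DP vs. LG, and 1 was higher and 2 lower in DP vs. LL. In LL vs. LG, leaving out LL replicate 1 gave 1, LL replicate 2 or LG replicate 2 gave 2, LG replicate 3 gave 0 and DP replicate 1 gave 6. Its summed level was 8636 to 31813 CPM in LL, 2772 to 4973 CPM in DP and 1415 to 5646 CPM in LG. In LL vs. LG, edgeR's test called 0 miRNAs of the other 4 lists, of which 8 had an unadjusted p under 0.05, against 33.0% of all tested miRNAs. chi-miR-200a, with an adjusted p of 0.0484, was among these 8 and under the limit on the fold change. In that comparison 2 epithelium miRNAs were lower in LL with libraries scaled by size only, where 12.9% of all tested miRNAs were lower. When only both stages were compared, 2 striated muscle miRNAs were higher, against 10.2% of all tested miRNAs.

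**Figure D4:**
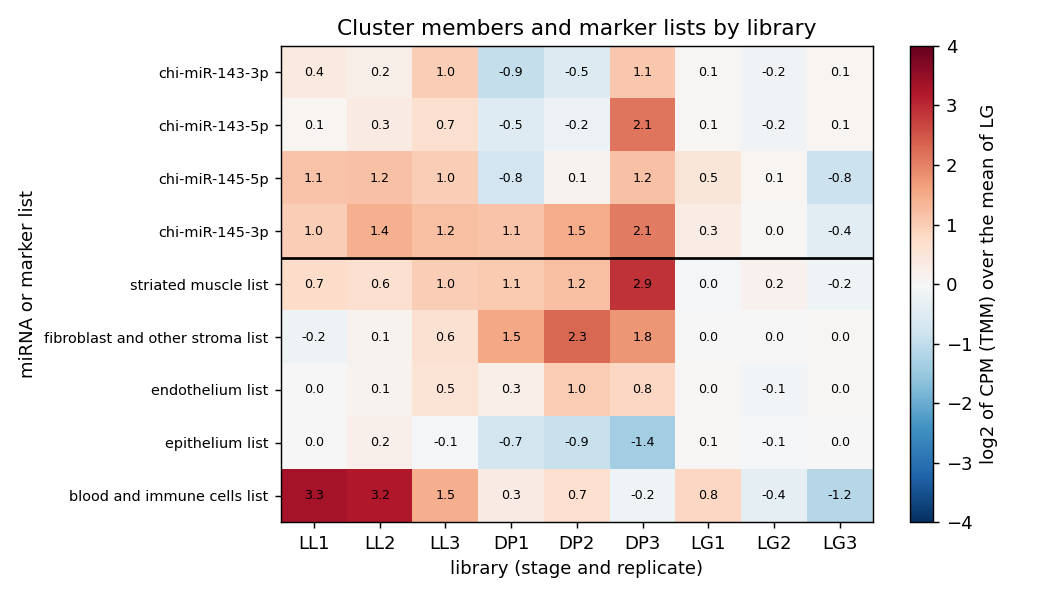
Cluster members (above the line) and summed marker lists (below) in each library, as log2 of CPM scaled by TMM over the mean of the LG libraries, with the values printed in the cells. In DP the stroma list is raised in all 3 libraries (1.5 to 2.3), whereas chi-miR-143-3p is at −0.9, −0.5 and 1.1, and DP replicate 3 has the highest striated muscle value (2.9) and the lowest epithelium value (−1.4).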

How the data were processed

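Small RNA libraries (NEBNext kit) of mammary gland from 9 goats, 3 per stage, were sequenced by the authors. The authors trimmed reads with Trimmomatic, aligned them to ARS1.2 with miRDeep2, merged known miRNAs of miRBase with predicted ones and counted reads with the quantifier of miRDeep2. The submitters' processing notes name FastQC 0.11.9, cutadapt 4.2 and Bowtie 1.1.1. The deposited values are raw counts per mature miRNA, and those of LL replicate 3 are expected counts, of which 2 are not whole and were rounded. Each library has 1 column in the deposited table.

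Tests covered miRNAs that reached 0.5 CPM in 3 or more libraries and used edgeR 4.0.16 in R 4.3.3 (TMM scaling, quasi-likelihood test on all 9 libraries, Benjamini-Hochberg adjustment). A DE-miRNA had a log2 fold change above 1 in size, with its adjusted p under 0.05. Standard errors are the log2 fold change over the root of F. Log2 CPM for correlations and spread used a prior count of 2. Log2 ratios used a pseudocount of 0.5 and exact permutation tests (scipy 1.17.1). Other tools were limma 3.58.1 (voom) and DESeq2 1.42.0, and the alternatives also held other scalings and filters, a replicate block and leaving out each library. The fit steps were tested on simulated data.

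The miRNAs named are the members, the 5 tested miRNAs most correlated with each main arm, the most abundant of each marker list and chi-miR-148a-3p, beside a few said to be chosen after their values were seen or that make up a small count. The members and lists were chosen with earlier results of these data known. The goats of a stage are separate animals, and the main tests did not pair libraries by replicate number. Deviations from stage means correlated from −0.10 to 0.21 in same-numbered libraries, with 3 of 9 pairs over 0.1. In libraries of other numbers they correlated from −0.23 to 0.15, with 2 of 18 pairs over 0.1. Whether same-numbered libraries belong together was not tested, and the replicate block was run as an alternative. Libraries held 13672653 to 34378995 counts, so that a floor of 3 counts stood at 0.0873 to 0.219 CPM. Without molecular identifiers, intervals or floors cover counting error only. Mature sequences were not used here.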

Additional observations from a re-analysis of the deposited data

How the results depend on the processing

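With 3 goats per stage, values in DP depended most on DP replicate 3. Of 129 values of the member tests under other settings, 107 kept their direction and their side of the thresholds, 8 lost a call, 1 gained one and 13 changed sign. DESeq2 gave no adjusted p for chi-miR-143-5p, which has no value there. The cause of these changes was not tested.

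The log2 fold change of chi-miR-143-3p in DP vs. LG (0.14) was −0.029 under relative log expression scaling and under DESeq2, −0.093 when libraries were scaled by size only, −0.14 once chi-miR-148a-3p was dropped, −0.13 with limma-voom, −0.18 without a filter, −0.14 with at least 10 counts in every library and −0.11 with the replicate block. That of chi-miR-145-3p in LL vs. LG (1.22) lost its call with relative log expression scaling (1.02), scaling by size only (0.67), omission of chi-miR-148a-3p (0.99), no filter (0.90), a minimum of 10 counts in each library (0.96) and only both stages compared (0.99). With scaling by size only, chi-miR-143-3p and chi-miR-143-5p were at −0.028 and −0.22 in LL vs. LG. With scaling by size after omission of chi-miR-148a-3p, a setting chosen after seeing the data, chi-miR-145-5p was at −1.35 (called) and chi-miR-145-3p at −0.21 in DP vs. LL. In DP vs. LG, chi-miR-143-3p was then at −0.75, chi-miR-145-5p at −0.50 and chi-miR-145-3p at 0.74 (call lost), and in LL vs. LG chi-miR-145-3p was at 0.96 (call lost).

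Leaving out 1 library gave log2 fold changes in DP vs. LL of −1.34 to −0.014 for chi-miR-143-3p, −0.77 to 1.17 for chi-miR-143-5p, −1.37 to −0.44 for chi-miR-145-5p and 0.06 to 0.59 for chi-miR-145-3p. In DP vs. LG these were −0.95 to 0.37, −0.59 to 1.35, −0.46 to 0.64 and 1.09 to 1.69. In LL vs. LG they were 0.21 to 0.57, 0.08 to 0.30, 0.61 to 1.24 and 0.83 to 1.204. The replicate block changed no call, with chi-miR-145-3p at 1.59 in DP vs. LG and 1.201 in LL vs. LG. The adjusted p of the exact tests of ratios and shares did not pass 0.05 in any of 40 alternatives.

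Of all tested miRNAs, 62 were higher and 27 lower in LL vs. LG, against 30 and 90 when scaled by size only, 48 and 43 under relative log expression scaling, 68 and 73 with only both stages compared, and 21 and 12 when LL replicate 1 was left out. On leaving out LL replicate 2 they were 24 and 12, LG replicate 1, 30 and 24, and LG replicate 3, 20 and 21. In DP vs. LL the numbers went from 105 higher and 81 lower to 165 and 59 when scaled by size only, and to 30 and 170 when scaled by size after omission of chi-miR-148a-3p. In DP vs. LG they went from 150 and 69 to 116 and 85 and to 46 and 193.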
